A study of Mus musculus with 22 samples.

Results

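The reporter transgene of these mice was measured at 203 CpGs. All CpGs on the transgene sequence were taken: 211 positions had a read in at least 1 of the 12 bisulphite libraries, 205 had reads in all 12, and 203 had at least 6 reads in all 12. By comparison, 17970854 CpGs of chromosomes 1 to 19 and X had reads in all 12 libraries, and 13032403 of those had at least 6 reads in each.

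The samples were whole embryos at E10.5 and livers at E14.5 and E18.5 from *Line3* FVB/NJ mice, with 2 wild-type (Rlf+/+) and 2 homozygous (Rlf MommeD28/MommeD28) libraries for each tissue. MommeD28 is an ENU-induced null allele of *Rlf*, and the embryos came from matings between heterozygotes. Every animal, wild types included, was homozygous for the array of GFP transgene copies. The labels give male embryos at E10.5, female livers at E18.5, and 1 male and 1 female liver of each genotype at E14.5, so tissue, stage and sex cannot be told apart across the 3 tissues. The E14.5 livers came from littermates. The labels name no litters for the other samples, and the p-values measure only the spread between these samples.

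The transgene joins the human alpha-globin promoter to the coding sequence of green fluorescent protein, followed by a polyadenylation signal and a fragment with HS-40, the distal enhancer that drives alpha-globin in red cell precursors. Arrays of repeated transgene copies are prone to silencing in which some cells express the reporter and others do not, and methylation of CpGs within such arrays often accompanies the silent state. The fetal liver is the main site of red cell formation at mid-gestation, whereas an E10.5 embryo is a mixture of all early tissues. Rlf is a zinc finger protein that was found through its effect on expression of this reporter.

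Positions are given in bp from the first base of the transgene sequence used by the authors, counted from 1. Methylation is the percentage of reads with an unconverted C, pooled over the CpGs named, and a difference between percentages is given in points. Where CpGs are pooled, a read is counted at each CpG that it covers. The reads do not tell the copies of the array apart, so each value is a mean over copies and over cells, and a change in the share of methylated cells cannot be told apart from a change in the share of methylated copies within cells.

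The transgene CpGs had a mean depth of 172 to 332 reads per library, whereas covered autosomal CpGs had 17.2 to 36.1, and the 4 E14.5 libraries were the deepest. Between 0.0412% and 0.0775% of Cs in the unmethylated lambda spike-in were read as methylated, and autosomal methylation ran from 56.4% to 60.3% at E14.5, 61.4% to 65.5% at E18.5 and 70.6% to 73.9% in the embryos.

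In all 3 tissues both *Rlf* homozygotes had more methylation of the transgene than both wild types. In E10.5 embryos it was 7.39% and 9.72% in the wild types and 20.7% and 22.6% in the homozygotes. In E18.5 livers it was 10.3% and 10.49% in the wild types and 26.0% and 24.9% in the homozygotes. No homozygous library overlapped a wild-type library of its tissue.

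The group means were 8.55% ± 1.64 against 21.7% ± 1.34 in embryos (SD, n = 2 each), a difference of 13.1 points or 2.53-fold. They were 10.4% ± 0.134 against 25.5% ± 0.764 in E18.5 livers (SD, n = 2 each), a difference of 15.1 points or 2.45-fold, and the difference in E14.5 livers was 12.3 points or 1.99-fold. With 2 samples against 2, the exact permutation test within a tissue could not go below p = 0.33, which was its value in each tissue. Permuting genotype within tissues over all 12 libraries, the mean difference was 13.5 points (two-sided exact permutation test, p = 0.00926, the lowest value possible with 216 arrangements). With all 203 CpGs summed to 1 row of the edgeR fit described below, the difference passed the test in embryos (adjusted p = 0.014) and E18.5 livers (adjusted p = 0.027) but not in E14.5 livers (adjusted p = 0.19). The embryo call was lost without the homozygous replicate 1 (adjusted p = 0.061) or 2 (0.13) or the wild-type replicate 1 (0.28) and with embryos fitted alone (0.12). The E18.5 call was lost without any 1 of its 4 libraries (adjusted p = 0.066 to 0.30) and in the fit with 500 bp tiles (0.0501).

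In autosomal methylation both homozygotes were above both wild types at E10.5 and E14.5 but not at E18.5, and these library values were not tested. Over 1 kb tiles of the genome the median difference was 1.13, 1.74 and 2.01 points in the order E10.5, E14.5 and E18.5. The paper averaged CpG methylation over larger windows and reports that lack of Rlf left its global level unaffected in each tissue.

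**Figure D1:**
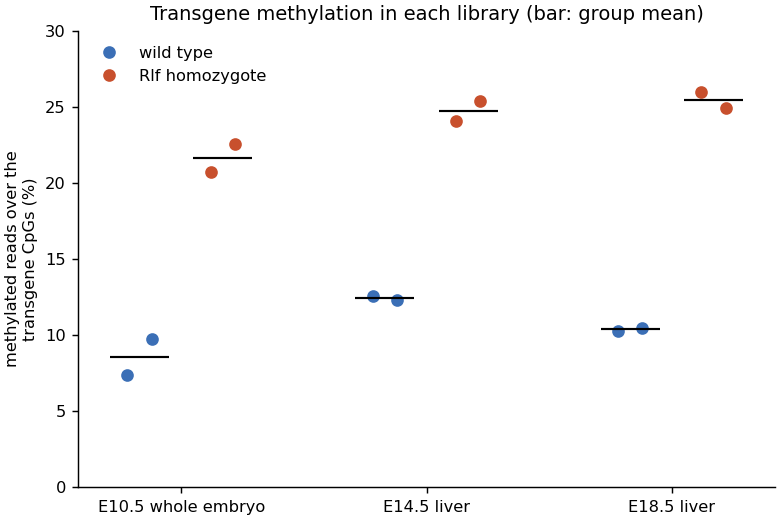
Percentage of methylated reads pooled over the 203 transgene CpGs (y axis) in each of the 12 libraries, by tissue (x axis) and genotype (colour), with a bar at each group mean. The 6 homozygous libraries lie between 20.7% and 26.0% and the 6 wild-type libraries between 7.39% and 12.5%.

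Single CpGs moved in the same direction across most of the sequence. The homozygous mean exceeded that of the wild types at 181 of 203 CpGs in embryos, 200 in E14.5 livers and 198 in E18.5 livers, against 51.3%, 56.9% and 55.1% of the 13032403 CpGs of the genome. Both homozygotes lay above both wild types at 153 CpGs in embryos, 181 in E14.5 livers and 182 in E18.5 livers. Over the genome this order of the 4 libraries was found at 17.7%, 21.4% and 19.9% of CpGs, at a lower depth per CpG than on the transgene. The same order held in all 3 tissues at 140 transgene CpGs and in none at 6, counts that were not made over the genome. The reverse order was found at 2 CpGs in embryos and at none in either liver (genome-wide 11.2% in embryos and 10.2% in each liver stage).

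The median difference per CpG was 11.03 points in embryos, 9.07 in E14.5 livers and 14.1 in E18.5 livers. The differences were unequal along the sequence: in embryos the lower quartile was 0.561 points, and 91 CpGs differed by more than 15 points. The corresponding counts above 15 points were 72 in E14.5 livers and 99 in E18.5 livers. Single CpGs of the genome were not counted by this measure, so no share can be set beside these counts.

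**Figure D2:**
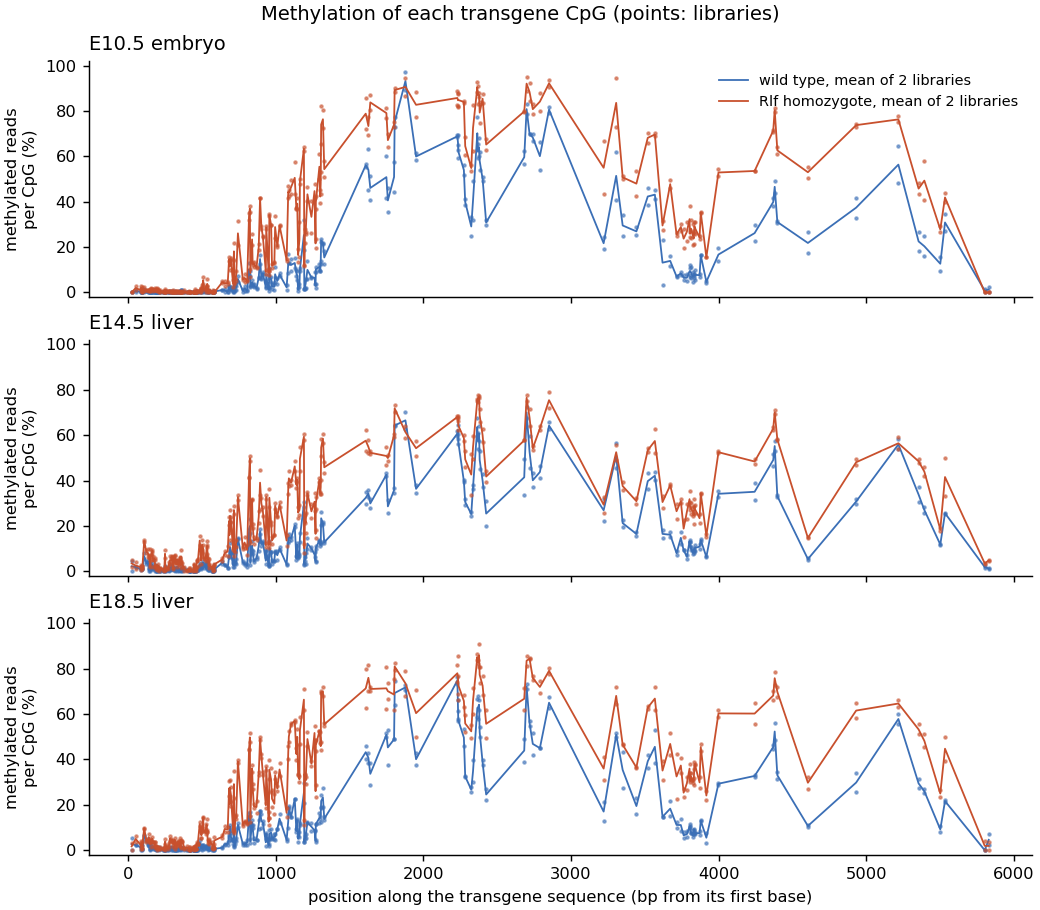
Percentage of methylated reads at each of the 203 transgene CpGs (y axis) against position along the transgene in bp (x axis), 1 panel per tissue. Points are single libraries and lines join the means of 2 libraries. In each tissue both genotypes are lowest over the first 500 bp, lie far apart between 1001 and 1500 bp, and are highest between 2501 and 3000 bp when averaged over 500 bp windows.

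The 203 CpGs were unevenly spaced, and windows of 1000 bp held between 6 and 112 of them. Each window was tested with edgeR's quasi-likelihood test on methylated and unmethylated read counts, in 1 fit with 581510 tiles of 1 kb across the genome and with Benjamini-Hochberg adjustment over all of them. A window was called when its adjusted p was under 0.05 and its difference above 15 points. Transgene windows needed at least 5 CpGs and genome tiles at least 8. Reads per CpG were also deeper on the transgene, so the shares of windows and tiles are not like for like. In embryos 5 of 6 windows were called as more methylated in homozygotes, against 0.369% of genome tiles. In E14.5 livers 3 of 6 were called, against 0.134% of tiles, and in E18.5 livers 5 of 6, against 0.196%. With limma on the log2 odds of methylation, the same rule called 5, 0 and 3 windows in the order E10.5, E14.5 and E18.5. Of the 581510 tiles limma called 613, 27 and 84 in that order, where edgeR called 2148, 777 and 1137.

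The window from 1 to 1000 bp, where the sequence was densest in CpGs (112 of 203), was the least methylated. Embryos had 1.54% and 2.004% in the wild types and 7.35% and 7.72% in the homozygotes. E18.5 livers had 3.76% and 3.36% against 11.95% and 13.1%. The genotypes did not overlap in either tissue. The differences of 5.77 points (edgeR adjusted p = 3.7e-05), 7.41 points (adjusted p = 0.0058) and 8.96 points (adjusted p = 0.00037) in the order E10.5, E14.5 and E18.5 passed the test but not the minimum of 15 points, and an adjusted p under 0.05 with the homozygotes higher was given to 0.713%, 0.249% and 0.288% of all tiles. On the log2 odds scale they were 2.19, 1.61 and 1.95. Among 7924 genome tiles with at least 60 CpGs per kb the median genotype difference was 0.0447, 0.0443 and 0.0261 points in the same order, and 208, 159 and 107 of them had an adjusted p under 0.05 with the homozygotes higher.

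The first and the last 500 bp of that window were unlike each other. In the first 500 bp, with 61 CpGs, wild-type embryos had 0.167% (24 of 14353 reads, 95% Wilson interval 0.112% to 0.249%) and 0.171% (21 of 12253 reads, 0.112% to 0.262%). Homozygous embryos had 0.685% (71 of 10366 reads, 0.543% to 0.863%) and 0.588% (59 of 10039 reads, 0.456% to 0.757%). Both genotypes were thus below 1% in embryos, without overlap between the genotypes. The intervals cover counting error only, and they are too narrow even for that, since a read is counted at each CpG that it covers.

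Livers had more methylation in the same 500 bp. Wild-type livers had 1.23% and 1.197% at E14.5 and 0.868% and 0.863% at E18.5. Homozygous livers had 3.56% and 4.13% at E14.5 and 2.82% and 2.84% at E18.5. Tested with 500 bp tiles, the genotype difference was 0.467 points in embryos (edgeR adjusted p = 0.019), 2.63 points at E14.5 (adjusted p = 0.0051) and 1.97 points at E18.5 (adjusted p = 0.0065). An adjusted p under 0.05 with the homozygotes higher was given to 0.849%, 0.361% and 0.383% of the 383236 genome tiles of that width. In points, however, 56.0%, 35.2% and 45.2% of those tiles had a higher difference, in the order E10.5, E14.5 and E18.5. From 501 to 1000 bp, with 51 CpGs, embryos had 2.68% and 3.63% against 13.0% and 13.6%, and E18.5 livers 5.97% and 5.36% against 19.1% and 21.1%.

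The steepest part of the profile lay between 1001 and 1500 bp, where 27 CpGs gained more than those of any other 500 bp stretch with at least 5 CpGs. Wild-type embryos had 7.33% and 10.3% and homozygous embryos 35.0% and 39.7%, a difference of 28.5 points (edgeR adjusted p = 1.1e-06). Wild-type E18.5 livers had 11.4% and 12.4% and homozygous ones 43.5% and 41.5%, a difference of 30.6 points (adjusted p = 5.2e-06), and the difference at E14.5 was 22.6 points (adjusted p = 9.9e-05). At all 27 CpGs both homozygotes lay above both wild types in all 3 tissues. Genome-wide, 17.7%, 21.4% and 19.9% of CpGs had that order in the single tissues, and it was not counted over all 3 together. The stretch was singled out for its large gain.

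The CpGs with the largest rises all lay here. At position 1319 wild-type embryos had 22.0% and 21.2% and homozygous embryos 72.3% and 80.4%. At E18.5 the same CpG had 18.9% and 27.6% against 67.9% and 71.9%. It had the largest rise in embryos (54.8 points) and at E14.5 (37.3 points) and was next to the largest at E18.5 (46.7 points). The others among the 3 largest of a tissue were positions 1307, with 51.1, 31.2 and 47.9 points in the order E10.5, E14.5 and E18.5, and positions 1295, 1163, 1328 and 1262, whose rises ran from 23.3 to 44.2 points over the 3 tissues.

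The window from 2001 to 3000 bp was the most methylated. Embryos had 57.4% and 61.9% in the wild types and 80.8% and 82.6% in the homozygotes, a difference of 22.1 points (edgeR adjusted p = 6.7e-06). E18.5 livers had 51.2% and 51.1% against 74.1% and 73.5%, a difference of 22.6 points (adjusted p = 7.9e-05). At E14.5 the difference was 14.9 points (adjusted p = 0.042), just under the minimum of 15. That E14.5 difference did not pass the test without any 1 of the 4 E14.5 libraries (12.03 to 17.8 points, adjusted p = 0.074 to 1), nor in 500 bp windows from 2001 to 2500 bp (adjusted p = 0.098) or 2501 to 3000 bp (adjusted p = 0.16).

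Further along, the window from 3001 to 4000 bp again held a cluster of CpGs and was low in wild types. Embryos had 10.002% and 13.1% against 29.9% and 33.9%, a difference of 20.4 points (edgeR adjusted p = 1.4e-06), and E18.5 livers 12.9% and 12.9% against 38.6% and 34.8%, a difference of 23.8 points (adjusted p = 6.6e-07). At E14.5 the difference of 16.3 points was called (adjusted p = 0.00052), but without the homozygous replicate 2 it was 14.7 points and fell below the minimum. From 4001 to 5000 bp, with 6 CpGs, embryos had 33.9% and 35.5% against 65.9% and 67.3% (31.9 points, adjusted p = 5.2e-08), the largest difference of any 1000 bp window in embryos.

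In E18.5 livers the window from 4001 to 5000 bp had 33.7% and 37.4% against 64.2% and 60.7% (26.9 points, edgeR adjusted p = 3.8e-06). At E14.5 it differed by 16.6 points (adjusted p = 0.0078), which lost the call without the E14.5 homozygous replicate 1 (adjusted p = 0.20), the homozygous replicate 2 (0.15) or the wild-type replicate 1 (0.35). The last window, from 5001 to 6000 bp with 7 CpGs, rose by 18.6 points in embryos (adjusted p = 0.00034) and 16.6 points at E18.5 (adjusted p = 0.0031). The E18.5 call was lost without the homozygous replicate 1 (14.98 points, adjusted p = 0.088) or without the wild-type replicate 1 (0.084) or 2 (0.082). At E14.5 the values of the last window were 25.9% and 27.7% against 38.5% and 38.1%, which did not pass the test (11.5 points, adjusted p = 0.091).

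**Figure D3:**
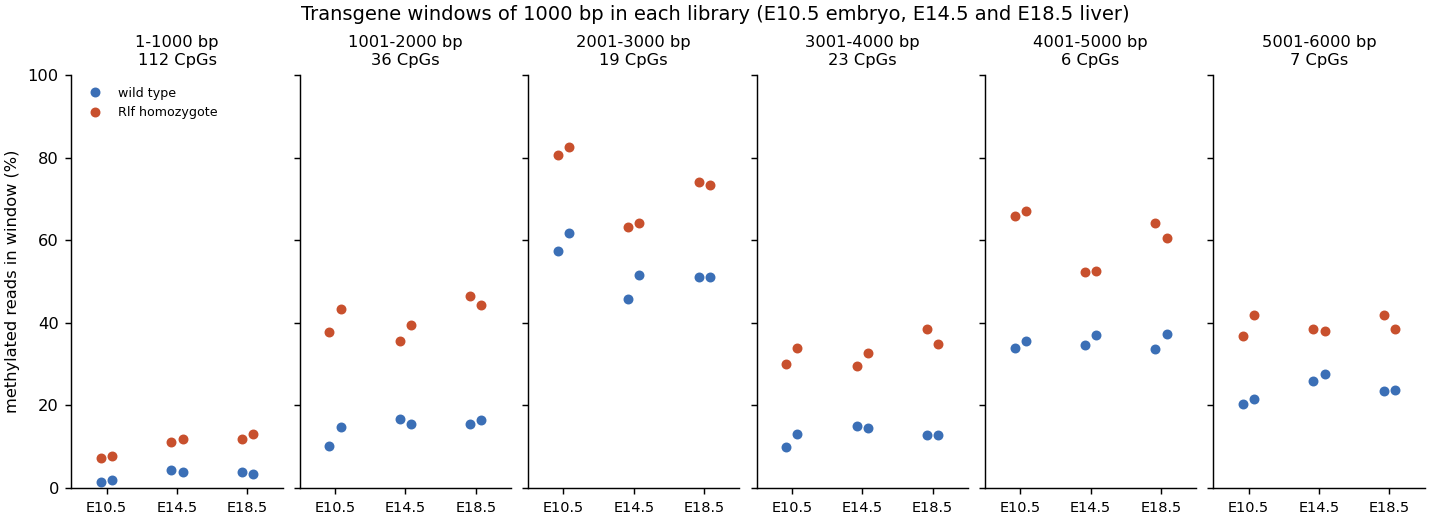
Percentage of methylated reads in each 1000 bp window of the transgene (y axis), 1 panel per window with its number of CpGs, for each library at E10.5 (embryo), E14.5 and E18.5 (liver) on the x axis. In all 18 combinations of window and tissue the 2 homozygous libraries lie above the 2 wild-type libraries. The share of genome tiles with this order was not counted, so none can be set beside it.

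A few CpGs did not follow the rest. Position 1878 had the highest wild-type level of all 203, a mean of 77.2%, and the lowest difference in embryos and at E14.5. Its wild types had 89.1% and 97.3% in embryos against 86.5% and 94.7% in homozygotes, and 62.7% and 70.4% at E14.5 against 58.9% and 63.9%. The genotypes overlapped in all 3 tissues at this CpG, whose depth ran from 37 to 330 reads. The next highest wild-type levels, at positions 2699 and 2851, were 74.3% and 69.9%, and their differences ran from 6.43 to 14.1 points.

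At the far end, positions 5803 and 5830 had low wild-type means of 0.890% and 2.36%. Their depth was 38 to 142 reads and their differences lay between -2.69 and 3.54 points. The other CpGs with the lowest differences of a tissue, positions 23, 88, 94 and 398, all had wild-type means under 2%. At 5 CpGs, positions 410, 415, 417, 437 and 450, no methylated read was seen in any of the 6 wild-type libraries; at position 410 that was 0 of 959 reads, which allows a level of up to 0.313%, and at position 450 it was 0 of 1169 reads, which allows up to 0.257%.

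Differences were largest at CpGs of intermediate wild-type level. The CpGs were placed in classes by their mean over the 6 wild-type libraries, so the wild-type levels of the classes are a description. The 101 CpGs under 5% differed by 2.68 points in embryos, 4.78 at E14.5 and 5.39 at E18.5. The 55 CpGs from 5% to 20% differed by 22.0, 18.8 and 26.2 points in the same order. At all 55 both homozygotes lay above both wild types in every tissue. Over the genome that order was found at 17.7%, 21.4% and 19.9% of CpGs in the single tissues. It was not counted there over all 3 tissues together or by wild-type level. The 31 CpGs from 20% to 50% differed by 30.1, 18.6 and 28.1 points, and the 16 CpGs above 50% by 20.03, 10.7 and 18.6 points.

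On the log2 odds scale the order changed. The class under 5% had the largest difference in embryos and at E14.5, with 2.44 and 1.80, and 2.13 at E18.5. The class from 5% to 20% had 2.34, 1.78 and 2.30, the class from 20% to 50% had 1.80, 1.11 and 1.67, and the class above 50% had 1.64, 0.67 and 1.29.

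**Figure D4:**
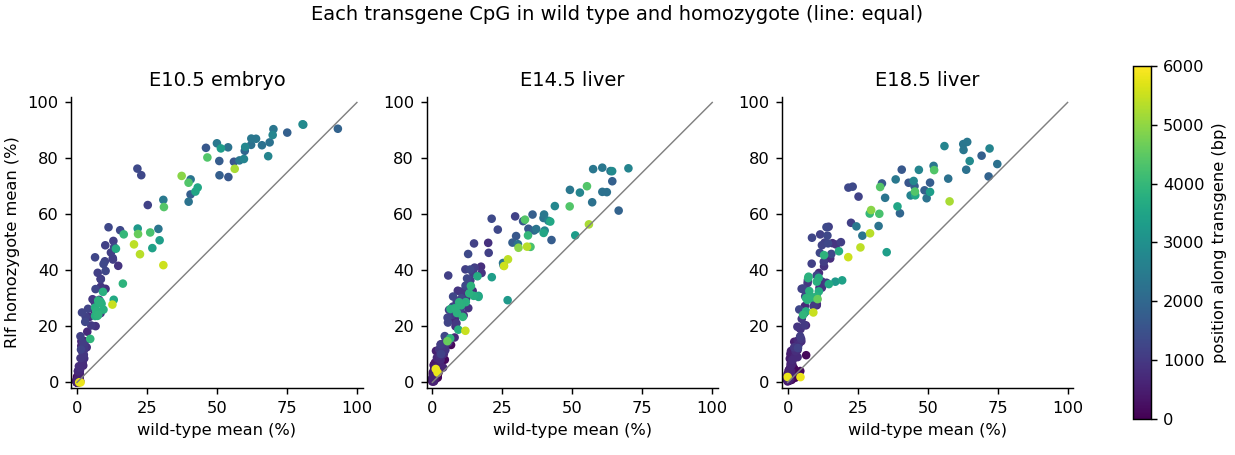
Mean methylation of each transgene CpG in homozygotes (y axis, %) against wild types (x axis, %), 1 panel per tissue, coloured by position along the transgene in bp, with a line of equality. Most of the 203 CpGs lie above the line. In embryos 12 lie below it and 10 on it, and 3 lie below it in E14.5 livers and 5 in E18.5 livers.

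The wild-type level followed the local spacing of CpGs. The 119 CpGs with at least 15 others within 100 bp had a median wild-type level of 1.09% and a median homozygous level of 4.22%. The 47 CpGs with 5 to 14 such neighbours had 11.4% and 38.7%, and the 37 CpGs with fewer than 5 had 40.4% and 64.6%. Across the 203 CpGs, the wild-type level and the number of neighbours had a Spearman's rho of -0.849 in embryos, -0.832 at E14.5 and -0.845 at E18.5 (Pearson's r -0.708, -0.729 and -0.729). Neighbouring CpGs share reads, so these points are not independent.

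The profile was much the same in the 3 tissues. Over the 203 CpGs, which share the array and the libraries, the wild-type level correlated between tissues with Pearson's r of 0.965 to 0.987 and Spearman's rho of 0.952 to 0.973. The genotype differences of separate tissues, which come from separate libraries, correlated with r of 0.868 between embryos and E14.5 livers, 0.926 between embryos and E18.5 livers and 0.936 between the liver stages (rho of 0.852, 0.907 and 0.931).

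Libraries of the same group also differed from each other. The root mean square difference per CpG between the 2 libraries of a group was 3.22 to 5.38 points over the 203 CpGs. The mean squared difference, divided by the variance that counting reads alone gives, was 0.912 to 1.63, where 1 is counting error only, and it was highest for the wild-type embryos. Pooled over the 203 CpGs, the 95% Wilson intervals of the pair did not overlap in the wild-type embryos or in the homozygotes of any tissue. Those intervals are too narrow, because they count a read at each CpG that it covers. For the 12 pairs of a wild-type and a homozygous library of the same tissue the root mean square was 13.1 to 20.8 points and the ratio 14.9 to 25.5. For the 24 pairs of the same genotype in different tissues it was 3.5995 to 11.1 points with a ratio of 1.12 to 5.93.

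Wild-type levels differed between embryo and liver in opposite directions at different places along the transgene. From 1 to 1000 bp wild-type livers were above wild-type embryos, by 2.32 points at E14.5 (edgeR adjusted p = 0.00049) and 1.79 points at E18.5 (adjusted p = 0.0041). From 2001 to 3000 bp they were below them: wild-type E14.5 livers had 45.9% and 51.6% against the 57.4% and 61.9% of embryos (-10.9 points, adjusted p = 0.0051), and E18.5 livers were lower too (-8.47 points, adjusted p = 0.032). From 5001 to 6000 bp E14.5 livers were higher by 5.88 points (adjusted p = 0.037).

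Thus 3 of 6 windows passed the test between E14.5 livers and embryos and 2 of 6 between E18.5 livers and embryos, whereas 86.5% and 75.7% of genome tiles did. The median difference of genome tiles from embryos was -15.8 points in E14.5 livers and -10.7 points in E18.5 livers. Between the liver stages edgeR gave 0 of 6 windows an adjusted p under 0.05 (0 at an unadjusted p under 0.05, and 0 with limma), against 5.37% of tiles. An unadjusted edgeR p under 0.05 was given to 168394 of the 581510 tiles, and an adjusted limma p under 0.05 to 388. The fall from 2001 to 3000 bp was not called without the embryo replicate 2, at E14.5 (-8.61 points, adjusted p = 0.069) or at E18.5 (-6.23 points, adjusted p = 0.21), nor at E14.5 without the wild-type replicate 1 of that stage (-7.98 points, adjusted p = 0.090) or at E18.5 without either wild-type liver (adjusted p = 0.096 each). The rise from 5001 to 6000 bp was not called without any 1 of the 4 wild-type libraries compared (5.004 to 6.75 points).

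Windows of 500 bp placed the fall more narrowly. From 1501 to 2000 bp, with 9 CpGs, wild-type embryos had 61.0% and 63.8%, E14.5 livers 42.6% and 44.6% and E18.5 livers 50.5% and 50.8%, a fall that passed the test in both livers (-18.8 points, edgeR adjusted p = 0.00013, and -11.7 points, adjusted p = 0.016). From 2501 to 3000 bp, with 6 CpGs, it passed too (-17.8 points, adjusted p = 0.00017, and -15.1 points, adjusted p = 0.0017). From 2001 to 2500 bp it did not (-6.57 points, adjusted p = 0.15, and -4.12 points, adjusted p = 0.40).

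The fall from 1501 to 2000 bp did not show in the 1000 bp window that holds it, where E14.5 livers differed from embryos by 3.65 points (edgeR adjusted p = 0.076). In that window the lower stretch from 1001 to 1500 bp has most of the CpGs and reads, and from 1501 to 2000 bp the E14.5 libraries had the most reads relative to autosomal CpGs. At 500 bp, 78.0% of genome tiles passed the test between wild-type E14.5 livers and embryos and 64.8% between E18.5 livers and embryos. Leaving out single libraries was not run at this width.

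At single CpGs, chosen after their values were seen, the fall was clearest at position 2741, with 69.9% and 66.7% in wild-type embryos, 37.0% and 43.2% in E14.5 livers and 42.1% and 51.6% in E18.5 livers. The rise was clearest at position 3999, with 13.7% and 19.8% in wild-type embryos, 35.5% and 32.9% in E14.5 livers and 29.7% and 28.9% in E18.5 livers. Embryos and livers did not overlap at either CpG. In homozygotes, position 3999 had 54.5% and 51.3% in embryos, 53.0% and 52.0% at E14.5 and 61.8% and 58.8% at E18.5.

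The order of the tissues in wild types depended on how the CpGs were weighted. By pooled reads the wild-type means were 8.55% in embryos, 12.4% at E14.5 and 10.4% at E18.5, and the libraries of the 3 tissues did not overlap. By the unweighted mean over CpGs, which gives shallow and deep CpGs the same weight, the wild-type libraries had 13.0% and 14.4% in embryos, 13.25% and 13.75% at E14.5 and 13.97% and 13.7% at E18.5, and the tissues overlapped. The genotype difference by the unweighted mean was 13.3, 10.9 and 15.1 points in the order E10.5, E14.5 and E18.5.

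Homozygotes also differed between tissues. From 1 to 1000 bp homozygous livers were above homozygous embryos, by 3.96 points at E14.5 (edgeR adjusted p = 0.044) and 4.98 points at E18.5 (adjusted p = 0.020). From 2001 to 3000 bp homozygous E14.5 livers, with 63.2% and 64.1%, were lower than homozygous embryos (-18.004 points, edgeR adjusted p = 3.4e-07), and homozygous E18.5 livers were higher than E14.5 livers by 10.1 points (adjusted p = 0.037) and lower than embryos (-7.89 points, adjusted p = 0.0064). From 4001 to 5000 bp homozygous E14.5 livers, with 52.4% and 52.6%, were lower than embryos (-14.1 points, adjusted p = 0.00020). In homozygotes the median difference of genome tiles from embryos was -15.2 points in E14.5 livers and -9.79 points in E18.5 livers. Between the liver stages it was 4.94 points. Of all tiles, 63.7% lay above the -18.004 points of 2001 to 3000 bp and 44.8% above the -14.1 points of 4001 to 5000 bp. The windows from 1001 to 2000, 3001 to 4000 and 5001 to 6000 bp did not pass in any pair of tissues (lowest edgeR adjusted p = 0.16, 0.22 and 0.67).

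The homozygous falls at E14.5 from 2001 to 3000 bp and from 4001 to 5000 bp passed without any 1 library. The rise from 1 to 1000 bp at E14.5 was not called without any 1 of the 4 homozygous libraries compared (adjusted p = 0.076 to 0.17) or without a wild-type E18.5 library (adjusted p = 0.051 each), and at E18.5 it was not called without the homozygous embryo replicate 1 (adjusted p = 0.066) or the homozygous E18.5 replicate 2 (0.099). From 2001 to 3000 bp the E18.5 fall was not called without the homozygous embryo replicate 2 (adjusted p = 0.054) or with the replicate block (0.078). The rise between the liver stages there was not called without the homozygous E14.5 replicate 1 (adjusted p = 0.15) or 2 (0.17) or the homozygous E18.5 replicate 1 (0.19), nor with limma (0.12). In all, 3 of 6 windows passed the test between homozygous E14.5 livers and embryos, 1 of 6 between the liver stages and 2 of 6 between E18.5 livers and embryos, against 87.2%, 9.74% and 73.5% of tiles.

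The genotype difference was smallest at E14.5 in 5 of the 6 windows, but the test of that difference passed in none. For the interaction of genotype and tissue edgeR gave 0 of 6 windows an adjusted p under 0.05 in each of the 3 pairs of tissues, and limma also gave 0. At an unadjusted p under 0.05 there were 2 windows between E14.5 livers and embryos, 1 between the liver stages and 0 between E18.5 livers and embryos. Of the 581510 genome tiles, 24715, 17858 and 29165 had an unadjusted edgeR p under 0.05, in the same order. The lowest unadjusted edgeR p was that of 4001 to 5000 bp, where the rise was smaller in E14.5 livers than in embryos (-15.2 points, unadjusted p = 0.0023, adjusted p = 1), and from 2001 to 3000 bp it was smaller too (-7.15 points, unadjusted p = 0.021, adjusted p = 1). Few genome tiles had an adjusted p under 0.05 either, with 0.00172%, 0.000172% and 0.00138% for the 3 pairs.

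An isolated CpG at position 4605, chosen after its values were seen, had a wide spread between tissues in homozygotes. Homozygous embryos had 50.5% and 55.5% there, homozygous E14.5 livers 14.48% and 14.9% and homozygous E18.5 livers 32.5% and 27.0%. The wild types had 17.2% and 26.5% in embryos, 5.94% and 4.82% at E14.5 and 11.3% and 10.1% at E18.5. Both homozygotes lay above both wild types in every tissue at this CpG.

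Read depth on the transgene was compared between genotypes relative to autosomal CpGs of the same library. It reflects coverage of the sequence as well as the number of copies, and they cannot be told apart here. It was 11.8 and 10.7 in wild-type embryos against 10.1 and 9.82 in homozygous embryos, 8.71 and 9.29 against 7.59 and 7.97 at E14.5, and 10.7 and 10.7 against 10.2 and 11.5 at E18.5. Homozygotes were lower in embryos and at E14.5, and the genotypes overlapped at E18.5. The mean difference was -0.776 (two-sided exact permutation test within tissues, p = 0.0833), and without the E18.5 homozygous replicate 2 it was -0.996 (p = 0.00926 in the same exact test, its lowest possible value). With a minimum of 20 reads per CpG the genotype difference in methylation over all tissues was 13.48 points, and without the deepest CpGs it was 12.6 points (p = 0.00926 in the exact test for each). Beyond these values and the unweighted means given above, the part of depth in the methylation differences was not tested.

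The depth was uneven along the sequence. Over the first 1000 bp it was 9.20 and 10.2 times the autosomal depth in wild-type E14.5 livers and 7.73 and 8.28 times in homozygous E14.5 livers, whereas the 8 other libraries had 11.3 to 14.55 times. From 1501 to 2000 bp the E14.5 libraries were instead the deepest, at 4.02 to 5.03 times against 1.59 to 3.603 times in the others. The E14.5 libraries thus gave less weight to the low-methylated start of the transgene in any value pooled over reads.

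**Figure D5:**
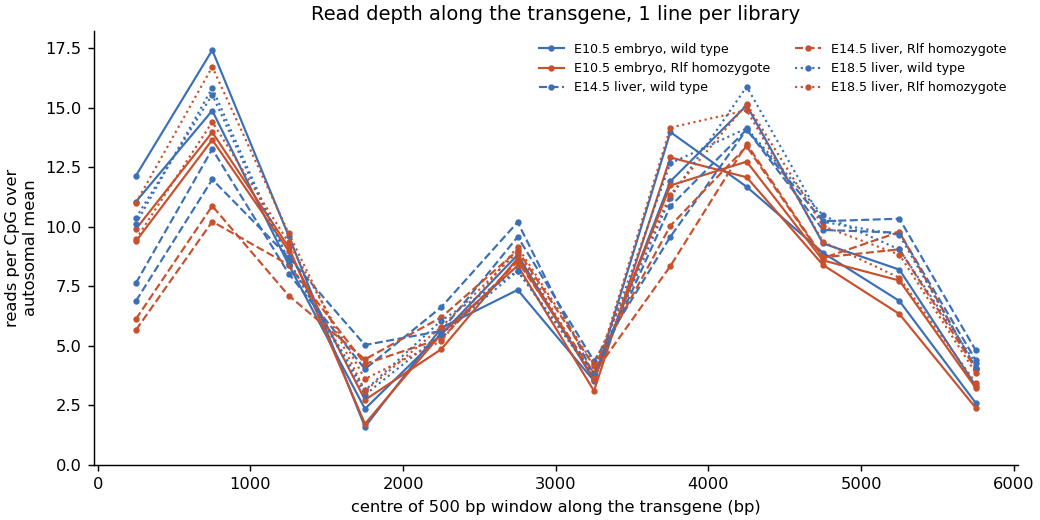
Reads per CpG over the autosomal mean of the same library (y axis) in 500 bp windows along the transgene (x axis, window centre in bp), 1 line per library with tissue by line style and genotype by colour. Over the first 1000 bp the 4 E14.5 lines (dashed) lie below the others, at 5.66 to 7.63 times the autosomal mean from 1 to 500 bp and 10.2 to 13.3 times from 501 to 1000 bp.

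No genotype difference passed the test at the mouse alpha-globin genes, the endogenous counterparts of the promoter in the transgene. Around *Hba-a1*, an adult alpha-globin gene (ENSMUSG00000069919.6, chr11:32183511-32184465 on the plus strand, NCBIM37), 9 CpGs within 1000 bp of the start had at least 6 reads in all 12 libraries. Methylation over them was 41.1% and 47.8% in wild-type and 50.8% and 50.8% in homozygous embryos, 16.9% and 13.8% against 18.3% and 20.7% at E14.5, and 25.2% and 14.48% against 31.6% and 18.7% at E18.5. The genotypes overlapped at E18.5 and not in the other tissues, and no difference passed the test (6.33, 4.19 and 5.35 points, edgeR adjusted p = 0.68, 0.85 and 0.65). The reference has 30 CpGs in this region, and the 9 used had only 252 to 458 reads together in a library. Whether a difference of this size could be detected with so few reads was not tested. Of the 9 CpGs, those at -490 and -140 bp from the start lie outside the gene. The others lie inside it, from 747 to 892 bp, so these values rest mostly on the body of the gene and not on its promoter.

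The same 9 CpGs differed by tissue, with wild-type E14.5 livers lower than wild-type embryos (-29.2 points, edgeR adjusted p = 4.9e-09) and E18.5 livers likewise (-24.6 points, adjusted p = 2.4e-06). Both falls were larger than the fall of the median genome tile. To show which sites these are, the CpG with the largest fall upstream of the gene and a pair inside it are printed from the plus strand of NCBIM37, with the measured CpG in capitals.
Hba-a1 CpG at -490 bp from the start, chr11:32183007-32183036: aaggaggagtctggCGagctgctcctgcag
Hba-a1 CpG at 799 bp from the start, chr11:32184296-32184325: agccaccaccctgcCGatttcacccccgcg
Hba-a1 CpG at 813 bp from the start, chr11:32184310-32184339: cgatttcacccccgCGgtgcatgcctctct

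The upstream CpG lay outside the annotated gene and went from a wild-type mean of 57.9% in embryos to 18.8% at E14.5 and 32.5% at E18.5. The CpG at 799 bp, in a coding exon, went from 52.0% to 21.9% and 18.99%, and the CpG at 813 bp, in the same exon, from 57.1% to 24.8% and 14.8%. The largest wild-type fall of a transgene window from embryos to livers was -10.9 points at a width of 1000 bp, from 2001 to 3000 bp, and -18.8 points at a width of 500 bp, from 1501 to 2000 bp. These were not tested against the fall at *Hba-a1*.

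The other genes of the locus also gave no genotype call. *Hba-x*, the embryonic alpha-like globin gene (ENSMUSG00000055609.2, chr11:32176400-32178116 on the plus strand), had 70.6% and 68.7% against 73.3% and 70.9% in embryos over 8 CpGs around its start, 68.1% and 66.3% against 67.7% and 68.6% at E14.5, and 63.5% and 61.3% against 74.8% and 65.0% at E18.5. The genotypes overlapped at E14.5 only, and the difference of 7.52 points at E18.5 did not pass the test (edgeR adjusted p = 0.62). The 8 CpGs of *Hba-x* had only 137 to 249 reads together in a library. *Nprl3* (ENSMUSG00000020289.8, chr11:32125628-32167707 on the minus strand), the housekeeping gene whose introns hold the mouse counterpart of HS-40, had 6.71% and 4.98% against 5.89% and 7.12% in embryos over 65 CpGs, 4.03% and 4.39% against 4.07% and 4.45% at E14.5, and 4.49% and 5.38% against 4.46% and 5.01% at E18.5. The 65 *Nprl3* CpGs lie within 1000 bp of its start, and the counterpart of HS-40 was not measured by itself. Of the *Hba-x* CpGs, that at -949 bp from the start lies outside the gene and the others inside it, from 36 to 965 bp. In each tissue edgeR gave 0 of these 3 regions an adjusted p or an unadjusted p under 0.05 for genotype. Limma likewise gave 0. An unadjusted edgeR p under 0.05 was given to 62835, 38663 and 60281 of the 581510 tiles in the order E10.5, E14.5 and E18.5. *Hba-a2* (ENSMUSG00000069917.6, chr11:32196489-32197301 on the plus strand), the other adult gene, had no CpG with enough reads within 1000 bp of its start.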

How the data were processed

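Genomic DNA of 12 mouse samples, spiked with lambda DNA, was bisulphite-converted and sequenced as 100 bp read pairs. The authors mapped reads with Bismark and Bowtie2 to mm9 carrying FVB substitutions, to which the lambda and GFP transgene sequences were added as chromosomes, removed duplicates and merged strands. The deposited files give counts of unconverted and converted Cs per CpG and a methylation percentage that the authors rounded to whole numbers. Counts were used here, and the deposited percent only as an alternative. The E14.5 libraries had 617827345 to 697227249 autosomal CpG reads and the others 314390416 to 356814842, so their values carry less counting error.

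Groups came from the labels. CpGs covered by 6 or more reads in every library were kept. The transgene sequence itself was not used here, and its elements are not placed by position. Windows of 1000 bp (at least 5 such CpGs) were fitted together with 1 kb genome tiles (at least 8 such CpGs) with edgeR 4.0.16. The fit had an intercept per library and a methylation term per group, and Benjamini-Hochberg adjustment over all rows. Single values were compared by exact permutation tests. CpGs were named by a rule: in each tissue the 3 largest rises and the 3 lowest differences, and the 3 highest and lowest wild-type levels. Windows, the rule and the gene list were chosen with earlier results of these data known. The fit was also run on counts simulated for genome tiles, with changes placed only in E14.5 homozygotes and at intermediate methylation levels. That run did not cover the depth or the lowest levels of the transgene. Annotation of the alpha-globin locus was GENCODE vM1 on NCBIM37. Alternatives were other coverage minimums, weightings, window widths, limma 3.58.1, a replicate block and leaving out each library.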

Additional observations from a re-analysis of the deposited data

How the results depend on the processing

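The difference over the whole transgene kept its direction, and the exact test over all tissues its side of the threshold, under every coverage minimum, weighting, lambda correction and scale tried; leaving out 1 library gave 13.1 to 13.9 points over all tissues, 11.9 to 14.3 in embryos, 11.7 to 13.0 at E14.5 and 14.53 to 15.6 at E18.5. For depth, leaving out 1 library gave -0.996 to -0.556. Under the rule for windows, limma called 27 genome tiles at E14.5 and 84 at E18.5, where edgeR called 777 and 1137. Windows called at E14.5, 3 of 6, numbered 0 with limma, 1 with a minimum of 20 points, 5 with no minimum and 1 to 3 without 1 library; at E18.5 limma called 3 instead of 5, and 4 or 5 were called without 1 library. Wild-type windows that passed between E14.5 livers and embryos numbered 1 to 3 without 1 library. Between E18.5 livers and embryos, 2 became 4 with 500 bp windows, 1 with limma, and 1 or 2 without 1 library. Except where fewer libraries or more windows entered by construction, the cause was not tested. Over genome tiles, deviations of same-numbered wild-type and homozygous libraries from their group means correlated at 0.0456, 0.0504 and -0.0136 in the 3 tissues. These libraries come from different animals, and the values cannot show whether they shared a litter or handling. At E14.5 the replicate number and the sex on the labels go together, so the replicate block cannot be told apart from sex there. Leaving out 1 E14.5 library likewise leaves a genotype with a single sex. With the replicate block the difference over all tissues was 13.5 points (exact sign flips, p = 0.0313). That p is the lowest that these sign flips allow, and it was fixed once every homozygote lay above the wild types of its tissue. The counts of windows called for genotype stayed at 5, 3 and 5. In wild types the replicate block ended the calls from 2001 to 3000 bp at E18.5 (edgeR adjusted p = 0.22) and from 5001 to 6000 bp at E14.5 (adjusted p = 0.056). Among 500 bp stretches, mean depth was lowest from 1501 to 2000 bp, at 29.4 reads per CpG in the shallowest library; the first 500 bp were deeper but rest on 21 and 24 methylated reads in the wild-type embryos.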

Other observations

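Of the 8 transgene positions with fewer than 6 reads in some library, position 2132 stood apart. It had 71 to 98 reads in each of the 4 E14.5 livers and 0 to 16 reads in each of the 8 other libraries, of both genotypes, and 97 of its 396 reads over all libraries were methylated. Positions 5864 and 5868, near the end of the sequence, had reads in all 12 libraries, at most 27 and 20 in any, and only 3 of 162 and 5 of 95 reads were methylated. The other 5 positions had between 1 and 10 reads in all and no methylated read.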
